A study of Mus musculus with 21 samples.

Results

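The expression of 10 genes of the vascular endothelial growth factor (VEGF), neuropilin and angiopoietin families was followed in the gastrocnemius of mice that trained, trained and then stopped, or stayed inactive. The genes were chosen by symbol from the 40853 genes of the count table, and comprise the ligands Vegfa and Vegfb, the receptors Kdr, Flt1 and Flt4, the co-receptors Nrp1 and Nrp2, the angiopoietins Angpt1 and Angpt2, and their receptor Tek. All 10 were found, and all 10 were kept among 16129 genes when rows of low counts were removed.

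VEGF-A is released by muscle fibres and other cells and acts on endothelial cells mainly through KDR, the receptor that drives their division and migration. FLT1 binds the same ligand tightly but signals weakly, so that it also holds ligand away from KDR, and the neuropilins bind both VEGF and secreted semaphorins and join the receptor complexes. ANGPT1 activates TEK and keeps vessels stable, ANGPT2 can oppose it, and endurance training is known to increase the capillary supply of skeletal muscle by a route that needs VEGF-A.

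RNA came from the whole medial belly of the gastrocnemius of 21 female C57BL/6NJ mice, with 1 poly(A) selected library per mouse and 7 mice per group. Mice entered the experiment at 10 weeks of age. The Active group ran on a treadmill on 5 days per week for 6 weeks, in sessions that grew to 40 min with the warm-up, most of it at about 70% of each animal's maximal speed. The Activity Reduction group trained in the same way for 4 weeks and was then left without training for 2 weeks, while the Inactive group lived in standard cages throughout. Mice of every group, the Inactive group included, ran graded maximal tests, and muscles were taken 48 to 72 h after the last test. Every group was thus sampled days after its last run, the maximal test, and whether a response to that bout remained was not tested. A whole muscle holds fibres, vessels, nerve and connective tissue. In RNA from it, fewer cells of a type and less RNA per cell cannot be told apart.

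The sum of gene counts ran from 38482455 to 59785132 per library, with medians of 53278181 for Inactive, 46532461 for Active and 49829192 for Activity Reduction mice. The tissue label was checked against 10 muscle fibre genes, of which Myh4, the fast myosin heavy chain, was the most abundant in every group. Their summed level was 162610 ± 3456 CPM (library-scaled counts, SD, n = 7) in the Inactive, 172800 ± 6988 in the Active and 167745 ± 10317 in the Activity Reduction group (two-sided exact permutation test, Active versus Inactive, p = 0.0035). Libraries were set apart by 24 transcripts that are mainly made in the liver, which were higher in 8 libraries than in the other 13. For Alb, which encodes albumin, the 8 libraries held between 365 and 1155 CPM and the 13 between 71.1 and 161 CPM. The 8 were Active replicates 1 to 5, Activity Reduction replicates 1 and 2 and Inactive replicate 1, and they were the mice with the lowest numbers in the labels. The groups were thus divided unevenly, and results are also given within the 13 libraries, which held 6 Inactive, 2 Active and 5 Activity Reduction mice, or with the division as a covariate.

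Levels of different genes were compared per length, as counts per kilobase of annotated exon scaled to the library total (FPKM). By the median over 21 libraries, Vegfa was the most abundant of the 10 with 52.1, followed by Vegfb with 21.2. The receptors lay well below both ligands, with Flt1 at 4.34, Kdr at 3.82 and Tek at 3.11. Nrp1 had 2.53 and Angpt1 2.23, and the 3 rarest transcripts were Nrp2 with 0.790, Flt4 with 0.616 and Angpt2 with 0.311. Most neighbours in this order kept their places in every library. The exceptions were Flt1 over Kdr, which held in 16 of 21 libraries, Kdr over Tek and Tek over Nrp1, which each held in 20, and Nrp1 over Angpt1, which held in 18. The ligands Vegfa and Vegfb were thus above every receptor in all 21 libraries, and the lymphatic receptor Flt4 was far below Flt1, Kdr and Tek.

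**Figure D1:**
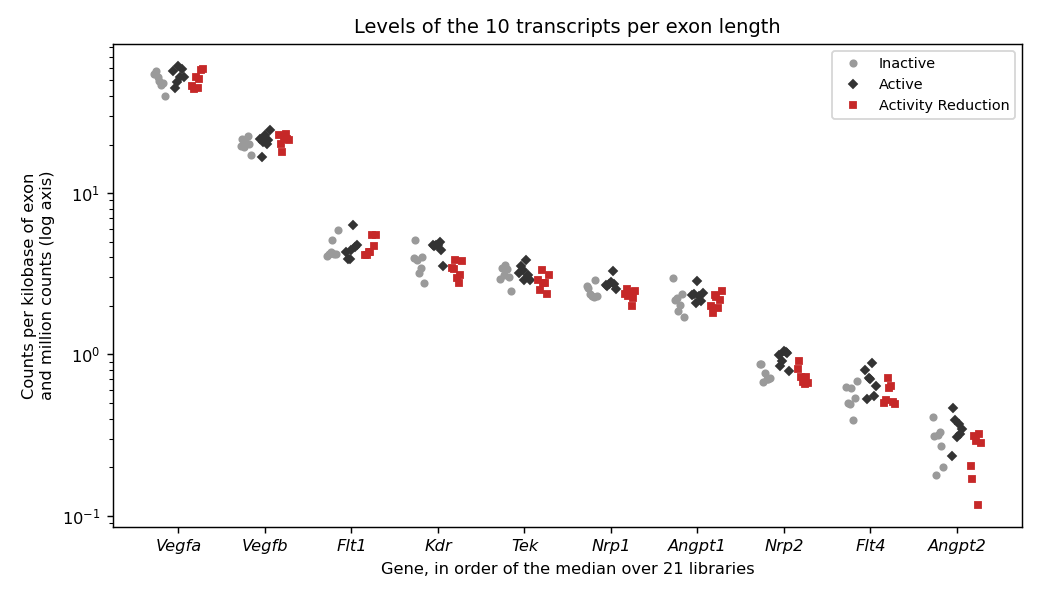
Level of each transcript in each library (FPKM, log axis), with genes ordered by their median over 21 libraries and 1 point per mouse. Vegfa and Vegfb, at medians of 52.1 and 21.2, lie above all receptors, and Angpt2, at 0.311, is the rarest.

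For Active versus Inactive mice, the question was what 6 weeks of regular running leave in the muscle. The mean of all 10 transcripts was higher in the Active group, where 51.6% of all genes tested had a log2 fold change above 0. The largest values were those of the co-receptor Nrp2 (0.33), the receptor Flt4 (0.33), the receptor Kdr (0.29) and Angpt2 (0.29), and the smallest was that of Flt1 (0.018). The median log2 fold change of the 10 was 0.14, beside 0.0052 over all genes tested. From these same libraries, the study reported gene sets of angiogenesis as positively enriched for Active versus Inactive. It reported them as negatively enriched for Activity Reduction versus Active. The 10 were chosen with earlier results known, so their medians and counts in both comparisons are no independent evidence of direction. None of the 10 passed edgeR's quasi-likelihood test at a Benjamini-Hochberg adjusted p under 0.05 and a log2 fold change over 0.25, and neither did any other gene (0.0%). At an unadjusted p under 0.05, 4 of the 10 differed, Kdr, Flt4, Nrp1 and Nrp2, all with higher values in the Active group, against 6.18% of all genes in that direction. When edgeR had the liver division as a covariate, 1 of the 10 did, Nrp2, against 4.24% of all genes as higher, and within the 13 libraries with fewer liver transcripts again 1, Nrp2, against 3.02%. A count of 1 in 10 says little beside such shares. DESeq2's Wald test on the same 2 groups called 1 of the 10, Nrp2, as higher, against 0.195% of the genes it tested, and DESeq2 on the 3 groups also called Nrp2 alone, against 0.139%.

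For Activity Reduction versus Active mice, which asks what 2 weeks without training change, 8 of the 10 had a lower mean in the Activity Reduction group, where 50.2% of all genes did. The lower values were led by Angpt2 (log2 fold change -0.49), Kdr (-0.42), Nrp2 (-0.33), Flt4 (-0.23) and Nrp1 (-0.21). Only Vegfb (0.050) and Flt1 (0.052) were above 0 over all libraries. The median of the 10 was -0.19, beside -0.00065 over all genes tested, and within the 13 libraries with fewer liver transcripts it was -0.060. There Angpt2 had -0.31, Kdr -0.25, Nrp2 -0.37 and Nrp1 -0.18. Flt4 (0.020) and Angpt1 (0.00062) turned above 0 in these libraries and Vegfb (-0.082) below, while Flt1 (0.070) stayed above. Adjusted for the liver division, edgeR put Flt1 at -0.029. Again 0 of the 10 passed edgeR's quasi-likelihood test, Benjamini-Hochberg adjusted, and 0.0% of all genes did. At an unadjusted p under 0.05, 4 of the 10 differed, Kdr, Nrp1, Nrp2 and Angpt2, all lower, against 6.44% of all genes in that direction. When edgeR had the liver division as a covariate, 3 of the 10 did, Kdr, Nrp1 and Nrp2, against 5.18% of all genes as lower, and within the 13 libraries 1, Nrp2, against 2.39%. DESeq2 on the 2 groups called 2 of the 10 as lower, Kdr and Nrp2, against 0.377% of its genes, and DESeq2 on the 3 groups called the same 2, against 0.314%. This comparison and the one before it share the 7 Active mice, so their opposite signs are not independent of each other.

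For Activity Reduction versus Inactive mice, which asks whether mice that stopped differ from mice that never trained, 6 of the 10 had a log2 fold change above 0 (52.2% of all genes did) and 4 below (47.8%), with a median of 0.0098 beside 0.0057 over all genes tested. Values ran from -0.20 for Angpt2 to 0.13 for Vegfb. With 1 library left out, Angpt2 lay between -0.29 and -0.079. Within the 13 libraries with fewer liver transcripts it had 0.023, and the median of the 10 was 0.063. Over all libraries, 0 of the 10 differed at an unadjusted p under 0.05 (7.73% of all genes did). There 0 were called by edgeR (0.0124% of all genes), by DESeq2 on the 2 groups (0.159%) or by DESeq2 on the 3 groups (0.0802%). For no member in any of the 3 comparisons were the groups free of overlap, which was so for 0.0434% of all genes with higher and 0.211% with lower values for Active versus Inactive. The corresponding shares were 0.0558% and 0.062% for Activity Reduction versus Inactive, and 0.18% and 0.112% for Activity Reduction versus Active.

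**Figure D2:**
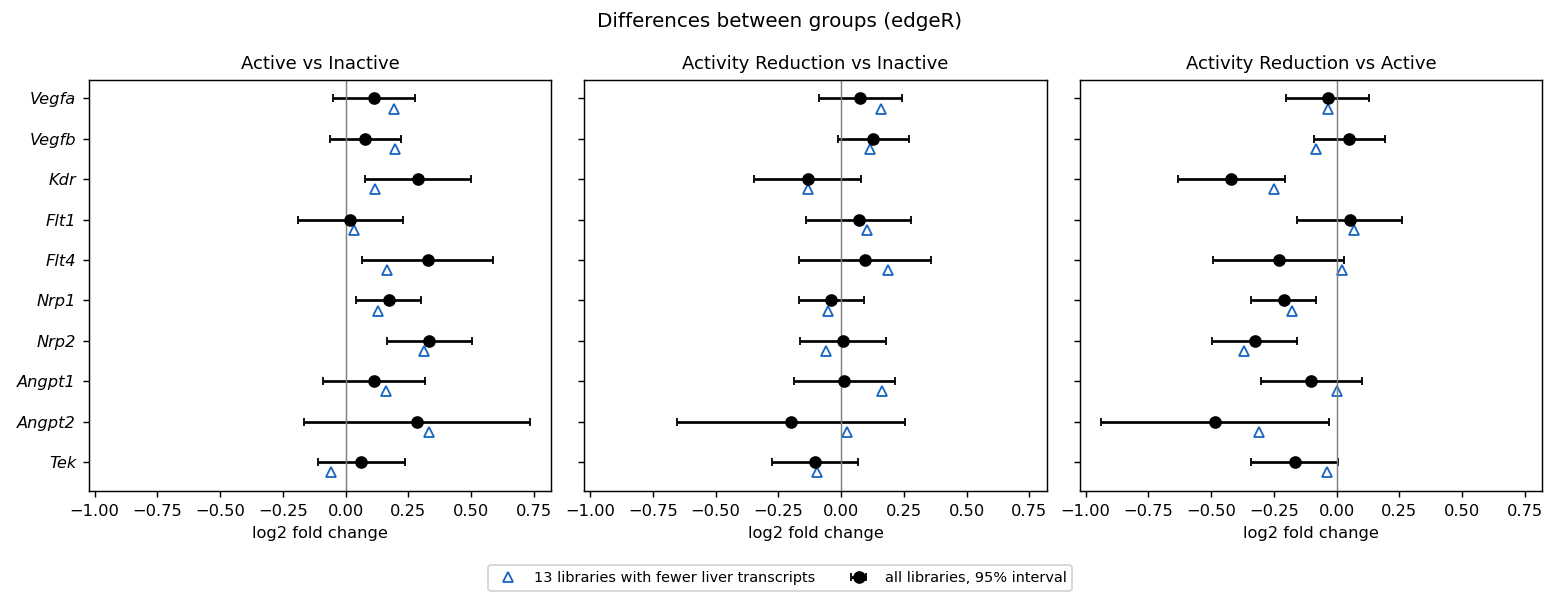
Log2 fold change of each transcript in the 3 comparisons (edgeR), with circles and 95% intervals for all libraries and triangles for the 13 libraries with fewer liver transcripts. Nrp2 stands at 0.33 for Active versus Inactive and at -0.33 for Activity Reduction versus Active, and Kdr at -0.42 in the latter. In the comparison of the Activity Reduction with the Inactive group every interval includes 0.

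The ligand transcripts were abundant, and their groups overlapped. Vegfa, on chromosome 17 of GRCm39 from 46327919 to 46343309, had between 8399 and 12100 normalized counts in the Inactive group, with a median of 10358. It had between 9886 and 12630 (median 11141) in the Active and between 9509 and 12933 (median 11179) in the Activity Reduction group, so the 3 groups overlapped over most of their range. The log2 fold change of Vegfa for Active versus Inactive was 0.11 (standard error 0.0794), with a 95% interval of -0.052 to 0.28 that includes both 0 and the 0.17 of Nrp1. It was 0.19 within the 13 libraries, and there 0.16 in place of 0.077 for Activity Reduction versus Inactive. With 1 library left out, Vegfa had 0.063 to 0.15 for Active and 0.022 to 0.11 for Activity Reduction versus Inactive. Vegfb, on chromosome 19 from 6958447 to 6965127, encodes a ligand of FLT1 that does not bind KDR. It had between 2747 and 3637 (median 3235), between 2788 and 3970 (median 3431) and between 2956 and 3837 (median 3607) normalized counts in the Inactive, Active and Activity Reduction groups. For Active versus Inactive its log2 fold change was 0.079 (0.037 to 0.12 with 1 library left out), and 0.20 within the 13 libraries. There its mean was highest in the Active group, 3703 in 2 mice, against 3513 in 5 Activity Reduction mice. Over all libraries it was highest after activity reduction, 3503 ± 293 (SD, n = 7), against 3214 ± 286 in the Inactive group (two-sided exact permutation test, p = 0.0880). With the liver division as a covariate, the unadjusted p of this difference in edgeR was 0.0426. It was the single case among the 10 in that comparison, where 4.54% of all genes were higher at that level.

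**Figure D3:**
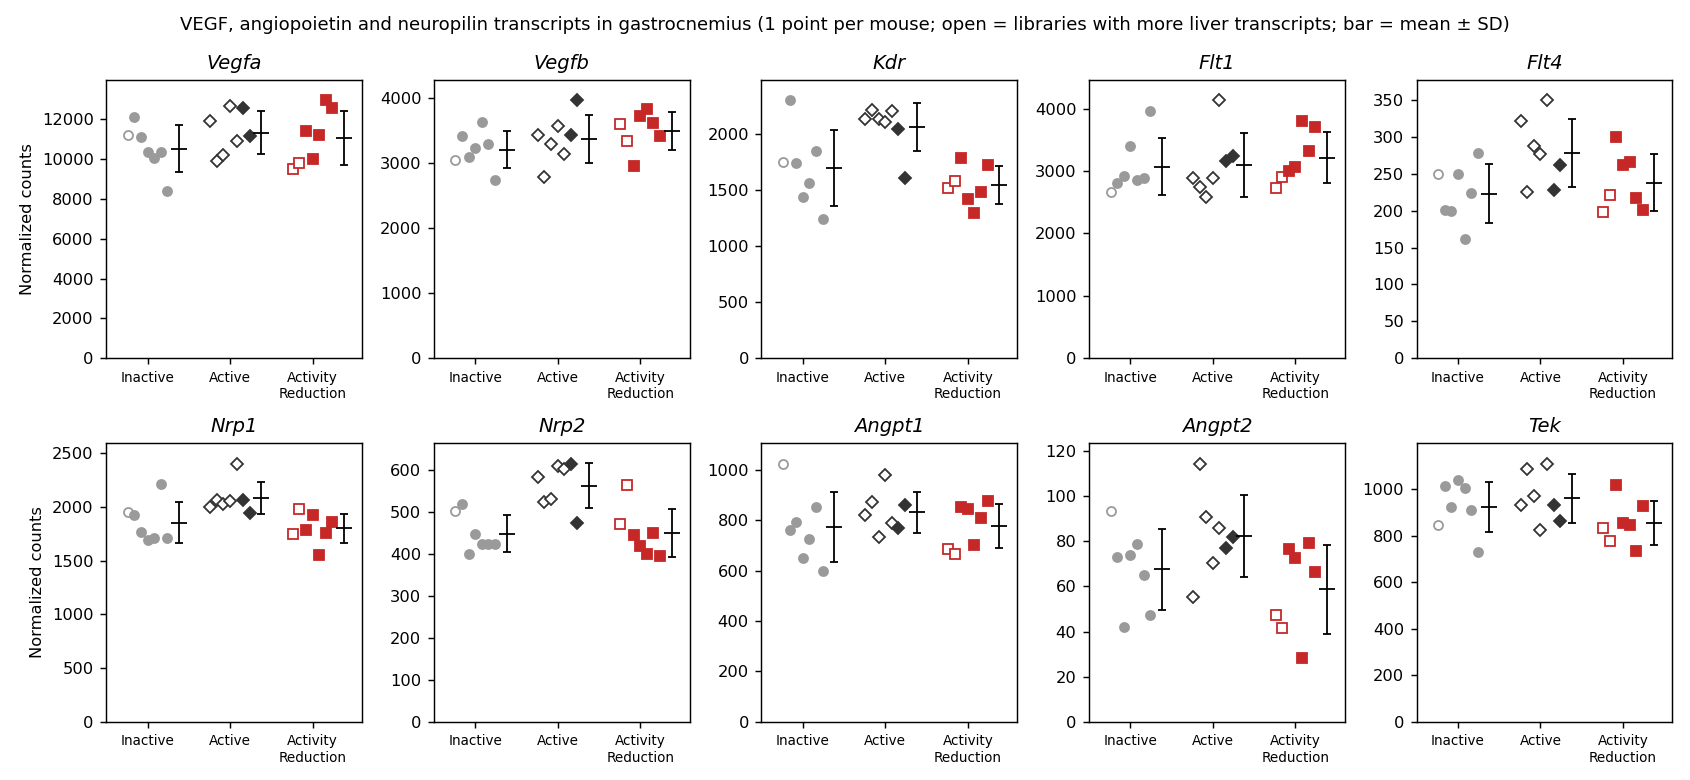
Normalized counts of the 10 transcripts by group, with 1 point per mouse, open points for the 8 libraries with more liver transcripts and bars for the mean ± SD (n = 7). For Nrp2, 6 of 7 Active mice lie above every Inactive mouse, whereas the 3 groups overlap over most of the range of Vegfa and Flt1.

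Kdr, on chromosome 5 from 76093487 to 76139884, encodes the main signalling receptor for VEGF-A on endothelial cells. Its normalized counts lay between 1244 and 2303 (median 1742) in the Inactive group, between 1608 and 2220 (median 2138) in the Active group and between 1300 and 1789 (median 1524) in the Activity Reduction group. Of the 7 Active mice, 6 lay close together between 2045 and 2220, and replicate 7, at 1608, lay among the mice of the other groups. The Inactive mice were spread over the range of both other groups. The mean was 2067 ± 211 (SD, n = 7) in the Active and 1546 ± 170 in the Activity Reduction group, a log2 fold change of -0.42 (standard error 0.103, 95% interval -0.63 to -0.21). Its adjusted p was 0.112 by edgeR's quasi-likelihood test (Benjamini-Hochberg adjusted) and 0.000493 by the Wald test of DESeq2 on the 2 groups, Benjamini-Hochberg adjusted, and over all alternatives it lay between 0.000493 and 0.981. An exact permutation test of the normalized counts, two-sided, gave p = 0.00175. Of the 7 Activity Reduction mice, 5 lay below every Active mouse.

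With the liver division as a covariate, the log2 fold change of Kdr between the Activity Reduction and Active groups was -0.36 in DESeq2 and was called, as were 0.174% of genes in that direction (adjusted p = 0.0102, Benjamini-Hochberg adjusted Wald test). Within the 13 libraries it was -0.25 in edgeR (5 mice against 2), and within the 8 the log2 ratio of means was -0.48 (2 mice against 5). The 2 Active mice of the 13 libraries were replicate 6, at 2045 normalized counts, and the low replicate 7, at 1608. Against the Inactive group, the Active mean was higher by a log2 fold change of 0.29 (standard error 0.103), with an adjusted p of 0.333 by edgeR's quasi-likelihood test. The exact permutation test of that difference, two-sided, gave p = 0.0332, and within the 13 libraries the log2 fold change was 0.12.

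Flt1, on the same chromosome from 147498414 to 147662826, encodes the receptor that binds VEGF-A and VEGF-B and has a soluble form. It had between 2661 and 3956 (median 2892), between 2587 and 4131 (median 2891) and between 2721 and 3801 (median 3059) normalized counts in the Inactive, Active and Activity Reduction groups. The groups overlapped almost entirely, and the 95% interval of its log2 fold change was -0.19 to 0.23 for Active versus Inactive and -0.16 to 0.26 for Activity Reduction versus Active. Counts per gene do not separate the membrane and soluble forms. Flt4, on chromosome 11 from 49500090 to 49543582, encodes the receptor for VEGF-C and VEGF-D, which in adult tissue is mainly found on lymphatic endothelium. It had between 161 and 278 (median 224) normalized counts in the Inactive, between 225 and 349 (median 277) in the Active and between 198 and 300 (median 221) in the Activity Reduction group. All 7 Active mice lay above the Inactive median and 3 lay above every Inactive mouse. The log2 fold change of Flt4 between these groups was 0.33 (standard error 0.126), with an adjusted p of 0.373 (edgeR's quasi-likelihood test, Benjamini-Hochberg adjusted) and an exact p of 0.0315 (two-sided permutation test). Within the 13 libraries it was 0.17. Against the Active group, the Activity Reduction mean of Flt4 was lower in all libraries (-0.23) but not in the 13 libraries with fewer liver transcripts (0.020).

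The ratio of Flt1 to Kdr varied widely within each group. Per library, the normalized count of Flt1 was between 1.22 and 3.18 times that of Kdr in the Inactive group (median 1.67), between 1.21 and 2.02 times in the Active group (median 1.37) and between 1.67 and 2.92 times in the Activity Reduction group (median 2.15). The ratio was above that of every Active mouse in 4 of 7 Activity Reduction mice. The order of the groups depended on the liver division. Within the 13 libraries the median ratio was 1.75 in 6 Inactive, 1.78 in 2 Active and 2.16 in 5 Activity Reduction mice, and within the other 8 it was 1.51 in the only Inactive mouse, 1.35 in 5 Active and 1.81 in 2 Activity Reduction mice. No test was run on the ratio. Of the other pairs, Nrp2 to Nrp1 had medians of 0.248, 0.261 and 0.256 in the Inactive, Active and Activity Reduction groups, Angpt2 to Angpt1 had 0.0915, 0.101 and 0.0760, and Vegfb to Vegfa had 0.313, 0.288 and 0.342.

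**Figure D4:**
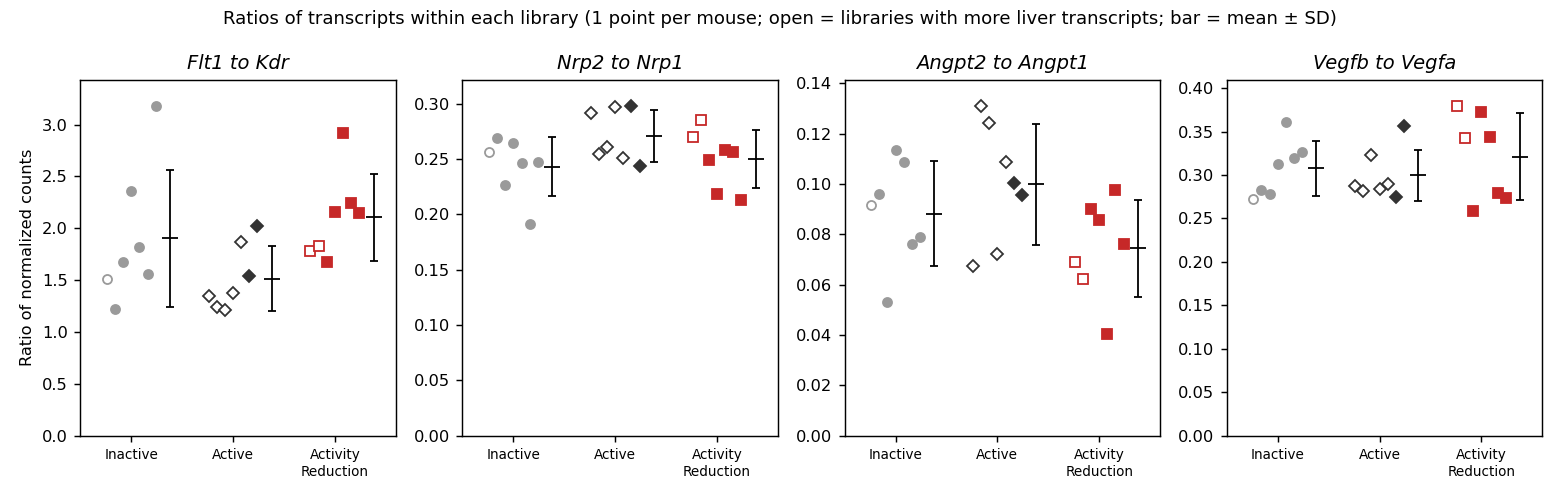
Ratios of normalized counts within each library by group, with 1 point per mouse, open points for libraries with more liver transcripts and bars for the mean ± SD (n = 7). The ratio of Flt1 to Kdr has medians of 1.67, 1.37 and 2.15 in the Inactive, Active and Activity Reduction groups, and 4 of 7 Activity Reduction mice lie above every Active mouse.

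Nrp2, on chromosome 1 from 62742444 to 62857854, encodes a co-receptor that is prominent on veins and lymphatic vessels and binds VEGF-C and semaphorins. It had between 400.5 and 518 (median 424) normalized counts in the Inactive group, between 473 and 615 (median 584) in the Active group and between 396 and 563 (median 446) in the Activity Reduction group. In the Active group, 6 of 7 mice lay above every Inactive mouse and only replicate 7, at 473, did not, and 6 of 7 Activity Reduction mice lay below every Active mouse. The means were 562 ± 53.9 (SD, n = 7) in the Active, 448 ± 44.2 in the Inactive and 449 ± 57.2 in the Activity Reduction group. The log2 fold change of Nrp2 was 0.33 (standard error 0.0821, 95% interval 0.16 to 0.50) for Active versus Inactive and -0.33 (standard error 0.0822, 95% interval -0.50 to -0.16) for Activity Reduction versus Active. Adjusted p-values were 0.162 and 0.115 by edgeR's quasi-likelihood test, Benjamini-Hochberg adjusted, which ranked Nrp2 as 50 and 90 of 16129 genes by p, and 0.0133 and 0.0295 by the Wald test of DESeq2 with the same adjustment on the 2 groups. Over all alternatives they lay between 0.0133 and 0.808 in the former and between 0.0218 and 0.981 in the latter comparison. Exact permutation tests, two-sided, gave p = 0.00291 and 0.00583. Nrp2 is one of the transcripts that the study itself picked from these same libraries, so these values are no independent evidence of its direction.

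The values of Nrp2 varied with the liver division. With the division as a covariate, DESeq2 gave log2 fold changes of 0.26 for Active versus Inactive (adjusted p = 0.789) and -0.25 for Activity Reduction versus Active (adjusted p = 0.157) by its Benjamini-Hochberg adjusted Wald test, and neither was called. That setting called 0.0433% of genes as higher in the former and 0.174% as lower in the latter. With it in edgeR the log2 fold changes were 0.23 and -0.25. Within the 13 libraries the log2 fold change was 0.31 for Active versus Inactive (2 mice against 6) and -0.37 for Activity Reduction versus Active (5 mice against 2). Within the 8 libraries the log2 ratio of means was 0.18 in the former (5 mice against 1) and -0.14 in the latter (2 mice against 5). Against the Inactive group, the Activity Reduction group differed by 0.0069, with a 95% interval of -0.16 to 0.18.

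Nrp1, on chromosome 8 from 129085085 to 129231082, encodes the co-receptor that carries VEGF-A to KDR. It had between 1694 and 2215 (median 1769) normalized counts in the Inactive, between 1939 and 2403 (median 2053) in the Active and between 1553 and 1977 (median 1788) in the Activity Reduction group. All 7 Active mice were above the Inactive median, and 6 of 7 Activity Reduction mice were below every Active mouse. The log2 fold change was 0.17 (standard error 0.0621) for Active versus Inactive and -0.21 (standard error 0.0622) for Activity Reduction versus Active, with adjusted p-values of 0.336 and 0.155 by edgeR's quasi-likelihood test, Benjamini-Hochberg adjusted. The exact permutation tests gave two-sided p-values of 0.0297 and 0.00117. The Wald test of DESeq2 with the same adjustment gave 0.0488 for the latter, over a log2 fold change of -0.21, which is under the size of 0.25 asked of a call, and over all alternatives its adjusted p lay between 0.0488 and 0.981. The log2 ratio of means was -0.18 within the 8 libraries, and the log2 fold change was -0.18 within the 13.

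Promoter sequences are shown for Kdr and Flt1, the receptors of VEGF-A whose ratio is given above, and for Nrp2, the member with the smallest p for Active versus Inactive. The RefSeq table used here had entries for 8 of the 10 members, all but Angpt1 and Angpt2. The sequences are the 250 bases before the annotated start of each gene on its own strand, from RefSeq on GRCm38.p6, at chr5:75978456-75978705 (minus strand) for Kdr, chr5:147726012-147726261 (minus strand) for Flt1 and chr1:62703067-62703316 (plus strand) for Nrp2. Capitals mark a GC box, searched as GGGCGG on both strands (CCGCCC on the other), and a TATA box, searched as TATAAA on both strands.
Kdr: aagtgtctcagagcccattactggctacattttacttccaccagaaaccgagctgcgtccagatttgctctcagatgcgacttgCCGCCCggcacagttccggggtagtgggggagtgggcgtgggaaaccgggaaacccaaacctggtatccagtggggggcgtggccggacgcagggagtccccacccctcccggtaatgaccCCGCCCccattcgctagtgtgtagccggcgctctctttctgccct
Flt1: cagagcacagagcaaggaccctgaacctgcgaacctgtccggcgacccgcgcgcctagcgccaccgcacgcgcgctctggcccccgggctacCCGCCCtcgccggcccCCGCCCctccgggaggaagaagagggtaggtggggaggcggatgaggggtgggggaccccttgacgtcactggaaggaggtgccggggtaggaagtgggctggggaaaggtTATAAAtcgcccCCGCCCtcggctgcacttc
Nrp2: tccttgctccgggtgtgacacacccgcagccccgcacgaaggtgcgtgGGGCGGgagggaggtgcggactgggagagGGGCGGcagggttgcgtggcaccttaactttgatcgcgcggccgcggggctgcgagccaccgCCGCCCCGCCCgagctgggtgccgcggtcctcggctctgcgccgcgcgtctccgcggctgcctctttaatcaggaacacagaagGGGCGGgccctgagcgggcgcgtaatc
Kdr held 2 GC box matches, Flt1 held 3 with 1 TATA box match near the start, and Nrp2 held 5, of which a pair share 1 base. Among all 32851 promoters of the same length, 32.7% held a GC box match and 12.4% a TATA box match. ACGTG, 1 form of the core of a hypoxia response element, was searched on both strands. It was not found in these 3 windows and is held by 16.6% of all promoters. The form GCGTG was not searched, and its letters occur on 1 or the other strand in all 3 sequences above. Among the other members, 1 of the 2 Vegfa promoters in the table held 1 match of ACGTG. These matches are a description of letters and not of binding.

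The angiopoietins and their receptor gave smaller or noisier differences. Angpt1, on chromosome 15 from 42288058 to 42540417, encodes the ligand that activates TEK. It had between 599 and 1024 (median 760), between 732 and 978 (median 820) and between 665 and 875 (median 810) normalized counts in the Inactive, Active and Activity Reduction groups, with the Active values inside the range of the Inactive ones. Tek, on chromosome 4 from 94627291 to 94763224, had between 729 and 1038 (median 923), between 826 and 1110 (median 935) and between 734 and 1020 (median 847). The log2 fold change of Tek for Activity Reduction versus Active was -0.17 (standard error 0.0834, 95% interval -0.34 to 0.0059), and within the 13 libraries it was -0.039. Angpt2, on chromosome 8 from 18739202 to 18791603, had only 31 to 105 raw counts per library. Its normalized counts lay between 42.0 and 93.7 (median 72.9), between 55.2 and 114 (median 81.9) and between 28.4 and 79.0 (median 66.4). The log2 fold change for Activity Reduction versus Active was -0.49 with a standard error of 0.219, an adjusted p of 0.341 (edgeR's quasi-likelihood test, Benjamini-Hochberg adjusted) and a two-sided exact permutation p of 0.0396. Of the exon bases of Angpt2, 70.7% are shared with exons of Mcph1 on the opposite strand, and whether reads were counted by strand is not given in the sources used here, so counts of Angpt2 are uncertain. Smaller overlaps on the opposite strand were found for Angpt1 (11.3% of exon bases, with Gm17473) and Nrp2 (3.18%, with Gm29083), and those of Flt4 (2.87%, with Gm73519), Nrp1 (1.93%, with Gm64234, and 0.256%, with Gm32643) and Vegfa (1.49%, with Gm65021) were smaller still.

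The same differences were set beside the endothelial content of the muscle. The 14 endothelial markers, of which Cdh5, a junction protein, was the most abundant and none was at 0, summed to between 288 and 340 CPM in the Inactive (median 315.8), between 305.8 and 393 in the Active (median 334) and between 272 and 332 in the Activity Reduction group (median 317.7). Two-sided exact permutation tests of the sums gave p = 0.164 for Active versus Inactive and 0.0915 for Activity Reduction versus Active. At an unadjusted p under 0.05 in edgeR, 3 of 14 markers were higher in the Active than in the Inactive group (6.18% of all genes were). In the Activity Reduction group, 3 were lower than in the Active group (6.44% of all genes were). Among both were Pecam1 with log2 fold changes of 0.14 and -0.17 and Cdh5 with 0.15 and -0.17. Erg, an endothelial transcription factor, had 0.16 and -0.19. The list as a whole was mixed, with 10 of 14 above 0 and 4 below in the former (median 0.051), and 5 above and 9 below in the latter (median -0.039). These medians were 0.10 and -0.066 within the 13 libraries, beside 0.12 and -0.25 for Kdr and 0.31 and -0.37 for Nrp2, and Erg had 0.31 and -0.38. Once the liver division was a covariate, the medians were 0.095 and -0.074. Divided by the geometric mean of the 14 markers in the same library, Kdr had means of 2.00, 2.37 and 1.80 in the Inactive, Active and Activity Reduction groups, a log2 ratio of -0.40 between the last pair. Nrp2 had 0.530, 0.642 and 0.521 (-0.30), and Nrp1 had 2.19, 2.37 and 2.09 (-0.18). For each of these 3 transcripts, 5 of 7 Activity Reduction mice were below every Active mouse on this scale. Of the other members, Angpt2 had a log2 ratio of -0.46 and Flt4 of -0.20, each with 3 of 7 below. Tek had -0.14, Angpt1 -0.075 and Vegfa -0.011, whereas Vegfb (0.080) and Flt1 (0.087) were above 0.

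Markers of other cell types had their highest sums in the Active group as well. At an unadjusted p under 0.05 in edgeR, 6.18% of all genes were higher for Active versus Inactive. For Activity Reduction versus Active, 6.44% were lower. DESeq2 on the 2 groups called 0.195% of its genes as higher in the former and 0.377% as lower in the latter. Counts of these marker lists stand beside these shares. The 6 lymphatic endothelial markers summed to 12.3 ± 1.88 CPM (SD, n = 7) in the Inactive, 16.2 ± 3.35 in the Active and 11.9 ± 1.67 in the Activity Reduction group (exact permutation tests, two-sided, p = 0.0268 and 0.0122 for Active versus Inactive and Activity Reduction versus Active). All 6 had a log2 fold change above 0 in the former, 3 with an unadjusted p under 0.05, and Lyve1, a hyaluronan receptor of lymphatic vessels that some macrophages also carry, had 0.88 and was called by DESeq2 (adjusted p = 0.00151, Benjamini-Hochberg adjusted Wald test) and not by edgeR (adjusted p = 0.257). Prox1, their most abundant gene, which hepatocytes also express, had 0.034 (-0.29 once the liver division was a covariate), and Mmrn1 and Ccl21a had 0.95 and 0.72 (0.60 and 0.33 within the 13 libraries). For Activity Reduction versus Active the median log2 fold change of the 6 was -0.30 in all libraries and -0.14 within the 13 libraries, where Mmrn1 (0.40) and Ccl21a (0.17) were above 0. The 8 macrophage markers, led by Mrc1, summed to 24.3 ± 4.46, 31.1 ± 4.72 and 22.4 ± 5.57 CPM (exact permutation p = 0.0204 and 0.00932), with 3 of 8 higher and then 4 of 8 lower at an unadjusted p under 0.05. Csf1r, the receptor that macrophages need to survive, had log2 fold changes of 0.53 and -0.74, and Cd163 had 0.47 and -0.66. Within the 13 libraries Csf1r had 0.26 and -0.42. The 8 fibroblast markers, led by Dcn, summed to 281 ± 50.4, 341 ± 55.5 and 244 ± 31.0 CPM (exact permutation p = 0.0408 and 0.00117), and 6 of 8 were lower in the Activity Reduction than in the Active group at an unadjusted p under 0.05, among them Col1a1 (-0.68), Col1a2 (-0.51) and Dcn (-0.38). Within the 13 libraries these were -0.30, -0.19 and -0.10, and the median of the 8 was -0.19 in place of -0.39. For Active versus Inactive, the median of the 8 within the 13 libraries was 0.084 in place of 0.25, with Col1a1 at -0.014 in place of 0.42 and Col1a2 at 0.010 in place of 0.37. As lower for Activity Reduction versus Active, DESeq2 on the 2 groups called 2 of 8 fibroblast markers, Col1a1 (adjusted p = 0.000493) and Col1a2 (0.0111), and 2 of 8 macrophage markers, Csf1r (0.0123) and Mrc1 (0.0448), beside Kdr and Nrp2. Neuropilins are also made by these cells, and the part of each list in the differences of Nrp1, Nrp2 and Flt4 was not tested. No gene of these lists was at 0 in all libraries.

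**Figure D5:**
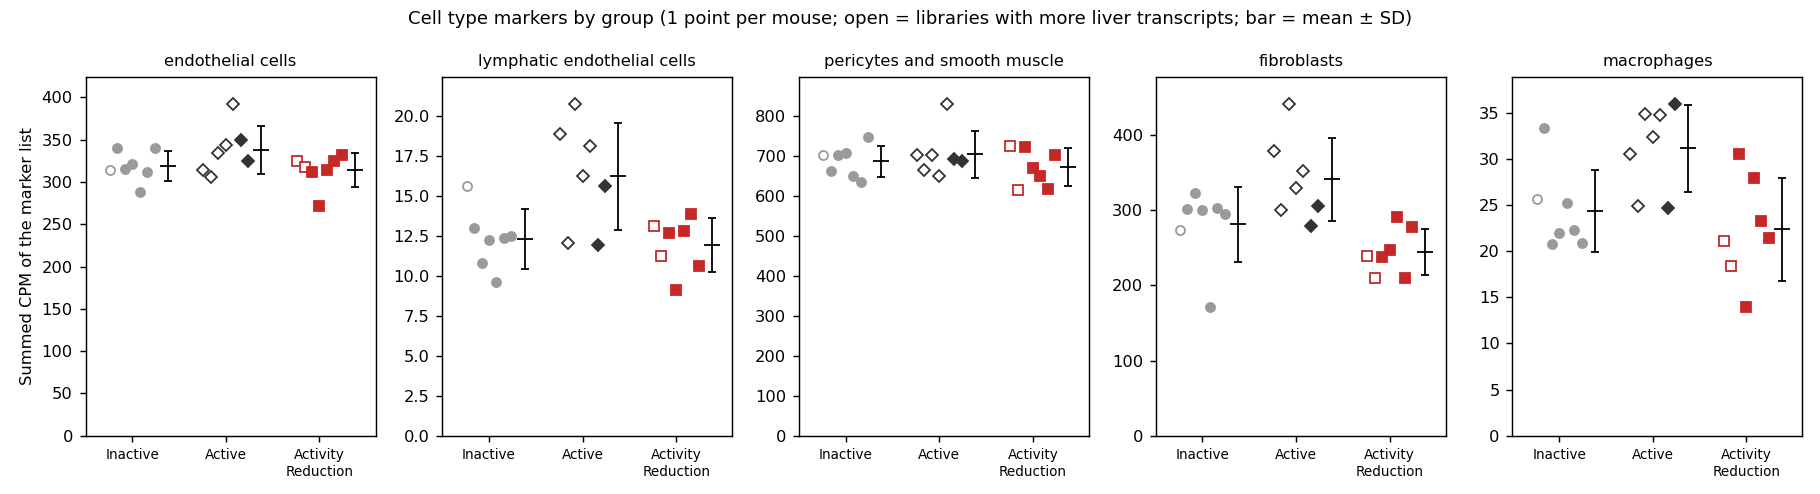
Summed CPM of 5 marker lists by group, with 1 point per mouse, open points for libraries with more liver transcripts and bars for the mean ± SD (n = 7). Lymphatic, fibroblast and macrophage sums have their highest mean in the Active group, and the pericyte and smooth muscle sums have means of 687, 704 and 672 CPM.

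Pericytes and smooth muscle cells wrap the vessels and make Angpt1. Of their 9 markers, 8 were tested, and 0 had an unadjusted p under 0.05 in any comparison with edgeR. Their sums were 687 ± 39.5, 704 ± 59.3 and 672 ± 46.9 CPM in the Inactive, Active and Activity Reduction groups, and their most abundant gene was Abcc9, which muscle fibres also express. Cspg4, Myh11 and Kcnj8 had log2 fold changes of 0.21, 0.18 and 0.13 for Active versus Inactive. The 24 liver transcripts summed to means of 529.5, 1162 and 596 CPM in the same groups. All 24 were above 0 for Active versus Inactive, 5 of them at an unadjusted p under 0.05 (6.18% of all genes as higher). DESeq2 on the 2 groups called 1 of the 24 there, against 0.195% of its genes as higher.

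The rest of the pathway was tested in the same way. At an unadjusted p under 0.05, 6.18% of all genes were higher for Active versus Inactive. The share was 6.44% as lower for Activity Reduction versus Active and 7.73% in either direction for Activity Reduction versus Inactive. Counts of the lists below stand beside these shares. Of 6 other ligands and receptors, 5 were tested, since Angpt4 had at most 12 counts per library. For Active versus Inactive, 2 of the 5 had an unadjusted p under 0.05, Pgf, which encodes placental growth factor, a ligand of FLT1, with a log2 fold change of 0.66 (adjusted p = 0.383, edgeR), and Ptprb, an endothelial phosphatase that restrains TEK, with 0.14 (adjusted p = 0.424, edgeR). Pgf was low, at 28.4 normalized counts in the Inactive and 44.6 in the Active group, and Vegfc, the ligand of FLT4, had 45.6 and 47.8. For Pgf and Vegfc the log2 fold changes within the 13 libraries were 1.05 and -0.16. None of the 5 was called by edgeR or DESeq2 in any comparison, and 0 had an unadjusted p under 0.05 in either comparison of the Activity Reduction group. Of 13 semaphorins, plexins and their adaptor, which are the other partners of the neuropilins, 1 had an unadjusted p under 0.05 for Active versus Inactive, Plxna4 with 0.29 (adjusted p = 0.414, edgeR). The other 2 comparisons had 0. Sema3c, the most abundant of them, had -0.022 and Sema3d 0.57, the latter over means of 19.4 and 28.8 normalized counts, and Gipc1 had 0.0040. Sema3d turned to -0.070 within the 13 libraries, where Plxna4 and Sema3c had 0.15 and -0.12.

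Among 12 endothelial genes that respond to VEGF or Notch, 0 had an unadjusted p under 0.05 for Active versus Inactive by edgeR, and 0 were called by edgeR or DESeq2. Nos3, the endothelial nitric oxide synthase, had 0.23 for Activity Reduction versus Inactive (adjusted p = 0.637, edgeR), and Unc5b, a guidance receptor of tip cells, had -0.48 for Activity Reduction versus Active (adjusted p = 0.258, edgeR), after 0.34 for Active versus Inactive. Notch4 and Rcan1, the most abundant, had 0.079 and -0.042 for Active versus Inactive. Within the 13 libraries with fewer liver transcripts these were 0.30 and -0.15, and the median of the 12 was 0.16 in place of 0.020. For Activity Reduction versus Active that median was -0.13 in place of -0.013. Of 20 genes of VEGF receptor signalling, 19 were tested. The kinase gene Akt1 had log2 fold changes of -0.085 (adjusted p = 0.453, edgeR) for Active and -0.14 (adjusted p = 0.344, edgeR) for Activity Reduction versus Inactive. For Activity Reduction versus Active, Map2k1 had 0.11 and Ptk2, the focal adhesion kinase, had -0.098, and Mapkapk2, the most abundant of the list, had 0.11 for Activity Reduction versus Inactive.

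Genes that sense oxygen or regulate Vegfa were 14, and 0 of them had an unadjusted p under 0.05 for Active versus Inactive by edgeR. For Activity Reduction versus Inactive, Esrra, a nuclear receptor that can induce Vegfa in muscle, had 0.22 (adjusted p = 0.344, edgeR), its partner Ppargc1a had 0.14 (adjusted p = 0.644, edgeR), and Egln3, an oxygen sensing hydroxylase that is itself induced by hypoxia, had -0.25 (adjusted p = 0.495, edgeR). Against the Active group, Ppargc1a had 0.15 in the Activity Reduction group. Hif1an, the most abundant, had 0.010 against the Inactive group. The median of the 14 was -0.0097, -0.0079 and 0.016 for Active versus Inactive, Activity Reduction versus Inactive and Activity Reduction versus Active.

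Of 12 inhibitors of angiogenesis, 2 had higher values in the Active than in the Inactive group at an unadjusted p under 0.05 (6.18% of all genes did). They were Serpinf1, which encodes PEDF, with 0.46 and Col18a1, the source of endostatin, with 0.76. With the liver division as a covariate these were 0.15 and 0.011, and both genes are also expressed in liver. For Activity Reduction versus Active, 3 of 12 were lower at an unadjusted p under 0.05, against 6.44% of all genes. Among them were Thbs2, a secreted thrombospondin, with -0.60 (adjusted p = 0.180, edgeR), and Serpinf1 with -0.50. DESeq2 called Serpinf1 (adjusted p = 0.0267, Benjamini-Hochberg adjusted Wald test), against 0.377% of its genes as lower, and edgeR did not (adjusted p = 0.223). Serpinf1 was -0.015 in the 13 libraries with fewer liver transcripts. Thbs2 was -0.60 in those libraries, and -0.49 for Activity Reduction versus Inactive. Cd36, the most abundant of the list and also the fatty acid transporter of muscle fibres, had -0.0021 for Active versus Inactive. The median of the 12 was 0.16, -0.048 and -0.19 for Active versus Inactive, Activity Reduction versus Inactive and Activity Reduction versus Active, and 0.080, 0.016 and -0.037 within the 13 libraries, where Cd36 had 0.10 in the first of these.

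The genes whose normalized counts varied most like each member were found among the 16129 genes tested, as the Pearson correlation of log2 values over the 21 libraries after the means of group and liver division were removed. Libraries share depth, tissue composition and dissection, and the values are a description. The nearest to Kdr were Afdn (r = 0.848) and Cd93 (r = 0.842), an endothelial surface protein. Flt1 varied most like Plin3 (0.900) and Fmo2 (0.877), and Tek most like Sec16a (0.882) and Arhgap29 (0.756). For Vegfa these were Srsf6 (0.839) and Akap1 (0.829), for Vegfb Ybx1 (0.868) and Nxn (0.862), and for Flt4 Antxr2 (0.863) and Abcb8 (0.808). Nrp1 varied most like Fgfbp1 (0.816) and Dixdc1 (0.794), Nrp2 like Foxj2 (0.719) and LOC118568199 (0.715), Angpt1 like Tmem233 (0.786) and Rab42 (0.785), and Angpt2 like Polm (0.759) and Gnrh1 (0.744). Among the members themselves, the highest values were those of Vegfa with Angpt1 (0.597), Vegfa with Kdr (0.573), Kdr with Tek (0.554) and Kdr with Nrp1 (0.529), and the lowest was that of Kdr with Flt1 (-0.380). No member was among the 2 nearest genes of any other.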

How the data were processed

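Per the labels and the methods, the authors used fastp for trimming, STAR for alignment to GRCm39 and featureCounts for counting. Versions, the annotation and the strand setting of counting are not given in the sources used here. The deposited values are raw counts per gene, and a further deposited table, which by its name should be normalized, was identical to it and was not used. The authors' own analysis used DESeq2 with thresholds of 0.05 on the adjusted p and 0.25 on the fold change. The latter was taken here as log2, which is 18.9% for an increase and a smaller percentage for a decrease. The methods give no scale for it, and a figure legend of the study gives a percent change in either direction instead.

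Normalized counts are raw counts divided by DESeq2 size factors over 21 libraries. Differences were tested in 1 edgeR (4.0.16, R 4.3.3, limma 3.58.1) quasi-likelihood model of the 3 groups after TMM normalization and filterByExpr, adjusted by Benjamini-Hochberg over 16129 genes. Standard errors are the absolute log2 fold change divided by the square root of F. DESeq2 (1.42.0), the liver division as a covariate and other settings were alternatives. Single values were compared by exact permutation of normalized counts or summed CPM (3432 splits, smallest two-sided p 0.000583). CPM are counts scaled to the library total, and levels per length used the union of GENCODE exons on GRCm39. The scripts were tested on simulated counts. Each library is 1 mouse, so the spread between replicates includes animals. Named were all 10 members, for each list the 3 genes with the smallest p and the most abundant one, and for each member the 2 most similar genes, with a pseudocount of 0.5. Members and lists were chosen with earlier results of these data known. In 4 further lists, adipocyte, Schwann cell, red blood cell and muscle fibre markers, counts are given in the closing section.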

Additional observations from a re-analysis of the deposited data

Results flagged for a closer look

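Within the 3 groups, 30 sets of 7 values (10 transcripts) were checked for a single value far from the others, by Dixon's limit on the gap to the nearest value divided by the whole range, which chance passes in about 1 of 20 sets. There were 3, all in the Active group. Kdr had 1608 normalized counts in Active replicate 7, where the nearest of the group had 2045 (gap over range 0.715). Flt1 had 4131 in Active replicate 5, with 3245 the nearest (0.574). Nrp1 had 2403 in the same mouse, with 2065 the nearest (0.729). Active replicate 7, also the lowest of its group for Nrp2, is 1 of the 2 Active mice with fewer liver transcripts, and Active replicate 5 is 1 of the 5 with more. Whether liver transcripts have a part in these values was not tested.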

How the results depend on the processing

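The count of members called was 0 in every edgeR fit run. With DESeq2 it was 1 for Active versus Inactive on the 3 groups and on the 2 groups alike, and 2 for Activity Reduction versus Active in both, where 1 was left with the liver division as a covariate. Members at an unadjusted p under 0.05 numbered 1 for Active versus Inactive when the liver division was a covariate, in edgeR and in DESeq2. In these fits, 4.24% and 2.21% of the genes tested were higher at that level. Such members also numbered 1 within the 13 libraries with fewer liver transcripts, against 3.02% of genes as higher. They numbered 1 for Activity Reduction versus Inactive with the covariate in edgeR, and 1 for Activity Reduction versus Active within the 13 libraries. There the median log2 fold changes were 0.063 for Activity Reduction versus Inactive and -0.060 for Activity Reduction versus Active. The cause was not tested, and the fits within the 13 libraries hold fewer mice. In the same 13 libraries the sign turned for Tek for Active versus Inactive (-0.056), for Nrp2 (-0.061) and Angpt2 (0.023) for Activity Reduction versus Inactive, and for Vegfb (-0.082), Flt4 (0.020) and Angpt1 (0.00062) for Activity Reduction versus Active. Other turned signs were Angpt1 for Active versus Inactive (-0.0090, DESeq2 with the covariate), Flt1 for Activity Reduction versus Active (-0.029 and -0.021 with the covariate in edgeR and DESeq2) and Nrp2 for Activity Reduction versus Inactive (-0.0015 without a filter, -0.00050 with edgeR on 2 groups, -0.024 and -0.040 with the covariate). Of 270 values of single genes under such alternatives, 250 kept both direction and side of the threshold.

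With 1 library left out, members called were 0 to 0 in each comparison. Those at an unadjusted p under 0.05 were 3 to 5 for Active versus Inactive, 0 to 1 for Activity Reduction versus Inactive (1 without Inactive replicate 5, Inactive replicate 7 or Activity Reduction replicate 3) and 3 to 6 for Activity Reduction versus Active, where 4.47% to 9.18% of all genes as higher, 5.31% to 9.07% in either direction and 5.27% to 7.59% as lower were at that level. Medians were 0.12 to 0.19, -0.030 to 0.038 and -0.22 to -0.15. Signs turned for Flt1 for Active versus Inactive (-0.069 to 0.088) and, for Activity Reduction versus Inactive, for Angpt1 (-0.047 to 0.095), Nrp1 (-0.067 to 0.0025) and Nrp2 (-0.056 to 0.037). In 610 of 630 such values of single genes nothing turned. The Benjamini-Hochberg adjusted p of edgeR's quasi-likelihood test lay between 0.0562 and 0.332 for Nrp2 for Active versus Inactive, and for Activity Reduction versus Active between 0.0870 and 0.229 for Kdr, between 0.0873 and 0.232 for Nrp2 and between 0.140 and 0.279 for Nrp1.

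Same-numbered libraries of different groups share only a number. Correlations of their deviations ran from -0.245 to 0.408 (median 0.0423) over 21 pairs, 7 of them over 0.1, and 2 of 21 libraries correlated best with their own number. With the replicate number as a block, 0 members were called in each comparison and 4, 0 and 3 had an unadjusted p under 0.05 for Active versus Inactive, Activity Reduction versus Inactive and Activity Reduction versus Active, with medians of 0.15, 0.011 and -0.19, so no call changed. In that fit 8.10% of all genes were higher in the first, 7.63% differed in the second and 7.85% were lower in the third at that level. Depth limits Angpt2 most, with 31 to 105 raw counts per library.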

Other observations

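In the adipocyte, Schwann cell, red blood cell and muscle fibre lists, 0 genes were called by edgeR or by DESeq2 on the 2 groups in any comparison. Of 5 adipocyte markers, 0 had an unadjusted p under 0.05, with Lep at -0.86 and Plin1 at -0.44 for Activity Reduction versus Active (-0.80 and 0.040 within the 13 libraries with fewer liver transcripts, where the median of the 5 was -0.065 in place of -0.39), and summed levels of 39.5 ± 22.8, 41.1 ± 24.4 and 34.2 ± 9.58 CPM (SD, n = 7) in the Inactive, Active and Activity Reduction groups. Of 4 Schwann cell markers, 1 was higher in the Activity Reduction than in the Inactive group at an unadjusted p under 0.05, Sox10 with 0.53. Of all genes, 4.19% were higher there at that level. Within the 13 libraries the median of the 4 was 0.74 in place of 0.24 for Active versus Inactive. For Activity Reduction versus Active it was -0.73 in place of -0.099. Among 5 red blood cell genes, Alas2, which encodes the first enzyme of heme synthesis in red cell precursors, had 0.50 for Active and 0.46 for Activity Reduction versus Inactive (adjusted p = 0.298 and 0.484, edgeR). In the latter, 2 of the 5 were higher at an unadjusted p under 0.05, against 4.19% of all genes. In 10 muscle fibre genes, 2 were higher in the Active than in the Inactive group at an unadjusted p under 0.05 (6.18% of all genes were), with Myh4 at 0.19. At that level, Acta1 was higher (0.13) and Myh7, the slow myosin heavy chain, lower (-0.74) in the Activity Reduction than in the Inactive group. The shares of all genes there were 4.19% as higher and 3.54% as lower.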
